A study of Mus musculus with 10 samples.

Results

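Platelets catch on injured vessel walls through the GPIb-IX-V complex, a receptor assembled from GPIb-alpha (Gp1ba), GPIb-beta (Gp1bb), GPIX (Gp9) and GPV (Gp5). Its ligand, von Willebrand factor (Vwf), is made by megakaryocytes and endothelial cells and stored in platelet alpha-granules. These 5 genes were selected by symbol from the 53819 gene symbols counted in mouse platelet RNA, and all 5 had counts in every library. GPIb-alpha carries the binding site for von Willebrand factor, GPIb-beta is linked to it by disulfide bonds, and GPIX is needed for the stable surface expression of both. GPV is the more loosely held subunit and is a substrate of thrombin. In humans, loss of GPIb-alpha, GPIb-beta or GPIX causes the bleeding disorder Bernard-Soulier syndrome, and loss of von Willebrand factor causes von Willebrand disease.

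The libraries came from platelets of P7 mice (replicates A, B, C, E and I), read here as postnatal day 7, and of adult mice (replicates A, B, C, G and H), with 5 at each age. Treatment, allele, strain, sex and adult age were not given in the sources used here. Whether a library came from 1 animal, from pooled animals or from a repeated draw is not stated either, and p-values therefore speak only to the spread of these samples, which may be technical. Platelets have no nucleus, and their RNA is what the parent megakaryocyte passed on. In such bulk samples, fewer platelets of a kind and less RNA per platelet cannot be told apart.

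The P7 libraries held 19431863 to 25029931 counts each and the adult libraries 19541997 to 23291269. The label of the tissue was checked against 12 markers of megakaryocytes and platelets, all of which were tested, with 3 higher and 3 lower at P7. Their summed level was 66228 to 89291 CPM (counts scaled to a common library size) at P7 and 70904 to 94839 CPM in adults. Erythroid markers summed to 1011 to 2431 CPM at P7 and 528 to 1570 CPM in adults, and 2 of the 11 tested were higher (Fech and Car2). Neutrophil markers summed to 2.44 to 6.06 CPM at P7 and 0.972 to 1.63 CPM in adults, with Cxcr2 at 0 in every library and 1 marker (Mmp8) tested, which was not called. Monocyte markers (0 higher and 1 lower of 4 tested) summed to 2161 to 3437 CPM at P7 and 2918 to 5805 CPM in adults, nearly all of it Lyz2, the lower one. Lymphocyte markers (1 higher, Ighm, and 1 lower, Nkg7, of 3 tested) summed to 12.6 to 29.5 CPM at P7 and 12.4 to 21.1 CPM in adults.

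The sequence before the transcription start is shown for the 3 receptor genes whose upstream window lies outside the exons of other genes, because GATA and ETS factors are textbook regulators of megakaryocyte genes. The sequences are those of RefSeq on GRCm38.p6, 150 bases ending at the base before the start, 5′ to 3′ on the strand of the gene. Capitals mark GATAA or its reverse complement TTATC, and AGGAAG or its reverse complement CTTCCT. They lie at chr6:87777920-87778069 (plus strand) for Gp9, chr11:70638972-70639121 (plus strand) for Gp1ba and chr16:30310782-30310931 (minus strand) for Gp5.
Gp9: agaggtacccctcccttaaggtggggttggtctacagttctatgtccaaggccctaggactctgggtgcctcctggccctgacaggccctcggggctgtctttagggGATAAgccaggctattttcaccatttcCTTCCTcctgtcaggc
Gp1ba: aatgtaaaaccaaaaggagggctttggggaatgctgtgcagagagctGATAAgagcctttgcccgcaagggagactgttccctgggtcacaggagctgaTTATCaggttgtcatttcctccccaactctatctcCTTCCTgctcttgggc
Gp5: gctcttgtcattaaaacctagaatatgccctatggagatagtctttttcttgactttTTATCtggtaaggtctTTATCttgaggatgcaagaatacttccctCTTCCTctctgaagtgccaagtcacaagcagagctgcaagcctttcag
Counting back from the start, the GATAA match of Gp9 began at position -43, those of Gp1ba at -103 and -51, and those of Gp5 at -93 and -77. The AGGAAG match began at -16 in both Gp9 and Gp1ba and at -48 in Gp5. Of 32851 RefSeq promoter windows of the same length, 13.3% held GATAA on either strand and 19.7% held AGGAAG. The Gp1bb window, in which neither motif was found, is not printed because exon sequence of Septin5 overlaps the region before the start. A match of letters is a description and not a binding site, and both motifs stood before Gp9, whose counts differed with age, and before Gp1ba and Gp5, for which the test found no difference.

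RNA counts of Gp1ba and Gp5 stood at overlapping levels in the 2 age groups, while those of Gp1bb and Gp9 were higher at P7. The level of Gp1bb is uncertain, because it rests on few counts and on exons shared with other genes. Receptor protein was not measured, so the values speak of transcripts and not of the receptor on the platelet. Of the 5 genes, 2 were called higher and 0 lower at P7 at an adjusted p under 0.05, where 13.8% of the 8198 genes tested were called higher and 27.7% in either direction. The groups did not overlap for the same 2 genes, against 10.1% of all tested genes that were above every adult library at P7 and 19.8% without overlap in either direction. The median log2 fold change of the 5 genes was 0.56 and that of all tested genes 0.05. Levels are TMM-scaled CPM, and fold changes are P7 over adult.

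**Figure D1:**
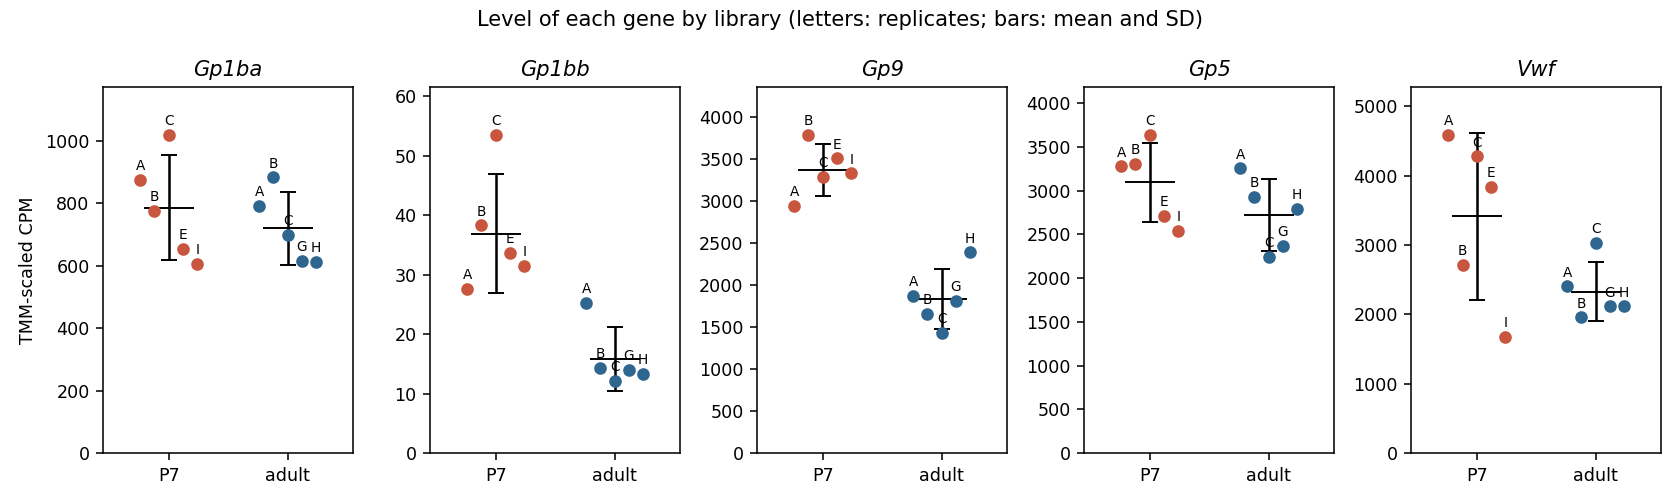
TMM-scaled CPM of Gp1ba, Gp1bb, Gp9, Gp5 and Vwf in each library, with P7 left of adult; letters name replicates, horizontal bars are means and error bars are SD (n = 5 each). Gp1bb and Gp9 of every P7 library lie above every adult library, and Vwf of P7 replicate I, at 1678 CPM, lies below all adult libraries.

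Gp1ba, the ligand-binding chain, had 874, 775, 1018, 654 and 605 CPM in P7 replicates A, B, C, E and I, against 790, 882, 699, 614 and 613 CPM in adult replicates A, B, C, G and H. The ranges overlapped almost fully, with P7 C alone above the adult range and P7 I just below it. The log2 fold change of Gp1ba was 0.13 ± 0.16 (SE; edgeR's quasi-likelihood test, Benjamini-Hochberg adjusted p = 0.60). Over 2012 genes averaging 20 CPM or more, log2 fold changes went with the GC content of the transcript at a Spearman's rho of 0.39, a description across genes, and in 1 alternative fit the GC trend of each library was taken out. The sign of Gp1ba turned with the GC trend removed, at -0.0103, and with the level of erythroid markers as a covariate, at -0.36, where neither value passed (edgeR, adjusted p = 0.97 and 0.41). Age explained 64.4% of the variance of that erythroid level, so the 2 cannot be told apart in such a fit.

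Gp5, which encodes the thrombin-cleaved subunit, had 3276, 3304, 3634, 2712 and 2538 CPM in P7 replicates A, B, C, E and I, against 3252, 2928, 2246, 2371 and 2790 CPM in adult replicates A, B, C, G and H. P7 A, B and C lay above the adult range and P7 E and I inside it. The log2 fold change of Gp5 was 0.19 ± 0.14 (SE; edgeR, adjusted p = 0.35). This sign too turned with the GC trend removed, at -0.21, and with the erythroid covariate, at -0.23 (edgeR, adjusted p = 0.30 and 0.55).

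Gp9, the small subunit that holds the complex at the surface, was the most changed of the abundant subunits. It had 2942, 3787, 3290, 3510 and 3330 CPM in P7 replicates A, B, C, E and I, against 1877, 1659, 1430, 1817 and 2392 CPM in adult replicates A, B, C, G and H. Every P7 library was above every adult library, and the P7 libraries were close together, with a coefficient of variation of 9.20% against 19.4% in adults. The mean of Gp9 was 3372 ± 310 CPM at P7 and 1835 ± 356 CPM in adult libraries (SD, n = 5 each), a log2 fold change of 0.88 ± 0.14 (SE; edgeR, adjusted p = 0.000443), or 1.84-fold. By count it ranked 39 to 54 among all gene symbols in the P7 libraries and 66 to 111 in the adult libraries. Its rise was smaller after removal of the GC trend, at 0.52 (edgeR, adjusted p = 0.0121), and missed the threshold once erythroid level was a covariate, at 0.79 (edgeR, adjusted p = 0.0671).

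Gp1bb, the disulfide partner of GPIb-alpha, rose by 1.22 ± 0.24 on the log2 scale (SE; edgeR, adjusted p = 0.00172), or 2.33-fold, but from far fewer reads than the other subunits. It had 27.6, 38.3, 53.5, 33.7 and 31.4 CPM in P7 replicates A, B, C, E and I, against 25.3, 14.3, 12.1, 14.1 and 13.4 CPM in adult replicates A, B, C, G and H. Adult A stood close to the lowest P7 library, P7 A, and the other adult libraries lay well below both. The counts behind these levels were 687 to 1330 at P7 and 233 to 530 in adults, whereas no other gene of the complex, nor Vwf, had under 10677 counts in a library. The gene lies on the same strand within Septin5, and in GENCODE M21, whose build may differ from that of the counts, 92.9% of its exon bases are also exon bases of other genes. The treatment of such shared bases in the authors' counting was not given in the sources used here, and the level of Gp1bb is therefore uncertain. Septin5 itself had 0.252 ± 0.0696 CPM at P7 and 0.408 ± 0.198 CPM in adult libraries (SD, n = 5 each) and was too low to be tested. After removal of the GC trend Gp1bb was at 0.74 (edgeR, adjusted p = 0.0313). It missed the threshold with the erythroid covariate, at 0.62, and with the endothelial covariate, at 1.08 (edgeR, adjusted p = 0.33 and 0.0993).

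**Figure D2:**
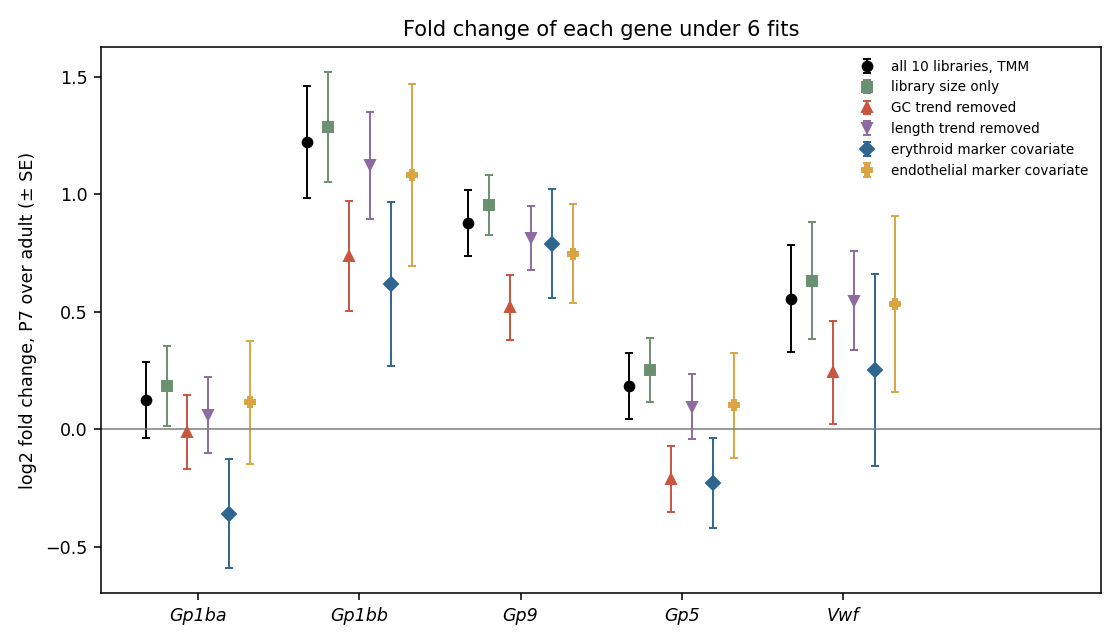
Log2 fold change, P7 over adult, of each gene under 6 fits, with error bars of 1 SE; the black circles are the values given for all 10 libraries. Gp9 stays between 0.52 and 0.95 and Gp1bb between 0.62 and 1.28, while Gp1ba and Gp5 fall on both sides of 0.

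Vwf, the ligand, differed more among the P7 libraries than any receptor subunit did. It had 4585, 2717, 4276, 3834 and 1678 CPM in P7 replicates A, B, C, E and I, against 2403, 1958, 3028, 2116 and 2115 CPM in adult replicates A, B, C, G and H. P7 A, C and E lay above the adult range, P7 B inside it and P7 I below it, and the coefficient of variation was 35.2% at P7 and 18.3% in adults. The means were 3418 ± 1203 CPM at P7 and 2324 ± 425 CPM in adult libraries (SD, n = 5 each), a log2 fold change of 0.56 ± 0.23 (SE) short of the threshold (edgeR, adjusted p = 0.0851). Without P7 I the log2 fold change of Vwf was 0.72 and passed (edgeR, adjusted p = 0.00626), the only 1 of the 10 omissions that changed the call. The libraries of letters A, B and C alone, also without P7 I, gave 0.62 and did not pass unblocked (edgeR, adjusted p = 0.0666). After removal of the GC trend Vwf was at 0.24, and with the erythroid covariate at 0.25 (edgeR, adjusted p = 0.45 and 0.77).

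The Vwf transcript is the longest of the set, at 8834 nt against 881 nt for Gp9. Across 2012 genes averaging 20 CPM or more, the log2 deviations of a library from its age group correlated with transcript length at a Spearman's rho of 0.40 in P7 A, 0.26 in P7 E, 0.02 in P7 C, -0.22 in P7 B and -0.29 in P7 I. The genes of such a correlation are not independent replicates, and the value is a description. The deviation of Vwf itself was 0.51 in P7 A, 0.41 in P7 C, 0.25 in P7 E, -0.24 in P7 B and -0.94 in P7 I on the log2 scale. P7 A and I were at the ends of both measures, while P7 C combined a rho near 0 with a high Vwf. In adults rho lay between -0.12 and 0.15 and the deviation of Vwf between -0.23 and 0.40, the highest being that of adult C at a rho of 0.04. With the length trend of each library removed, an alternative chosen after seeing the data, the log2 fold change of Vwf was nearly the same, 0.55 ± 0.21 (SE; edgeR, adjusted p = 0.0664).

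**Figure D3:**
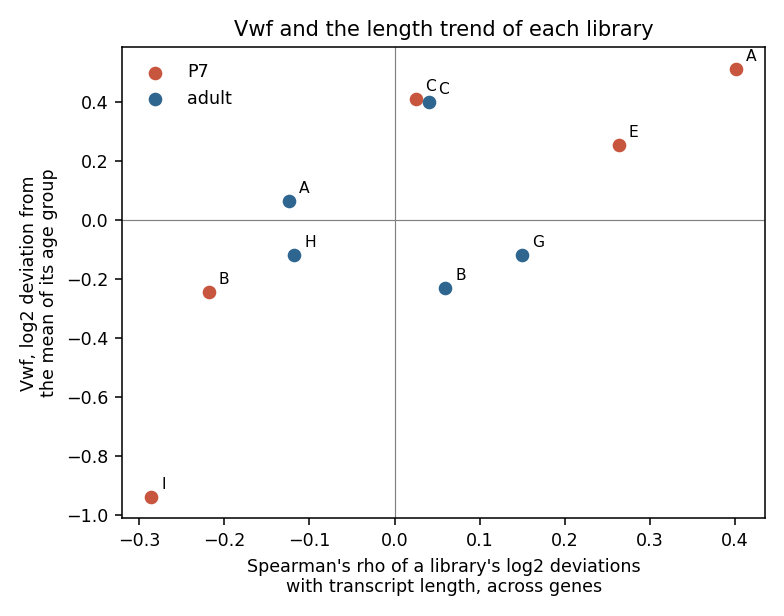
Each point is a library, with the Spearman's rho of its log2 deviations with transcript length on the horizontal axis and the log2 deviation of Vwf from the mean of its age group on the vertical axis. P7 A sits at the upper right (0.40 and 0.51) and P7 I at the lower left (-0.29 and -0.94), while the adult libraries lie between.

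Because endothelial cells also make von Willebrand factor, 16 endothelial markers were examined beside Vwf, of which 9 could be tested and 2 were higher and 0 lower at P7. Their summed level was 1147 to 1721 CPM at P7 and 1296 to 1553 CPM in adults. Most of it came from Pecam1 and Esam, adhesion molecules that platelets also carry. Plvap, a protein of endothelial diaphragms, rose by 1.43, at 123 ± 35.0 CPM at P7 and 45.7 ± 12.4 CPM in adult libraries (SD, n = 5 each). Its call was lost with the erythroid (0.90) and endothelial (1.22) covariates (edgeR, adjusted p = 0.14 and 0.0532). Cdh5, the cadherin of endothelial junctions, rose by 2.92, with 3.92 CPM in P7 libraries and 0.499 CPM in adult libraries. The call of Cdh5 was lost without P7 A, C or E or adult A, B or H (2.60 to 5.40 over all omissions) and with no filter on low counts. It was also lost with the erythroid (4.94) and endothelial (1.84) covariates (edgeR, adjusted p = 0.11 and 0.0703). Of the other endothelial receptors, Kdr had 45.4 ± 18.4 CPM at P7 and 19.7 ± 11.9 CPM in adult libraries (log2 fold change of 1.21; edgeR, adjusted p = 0.0572). Tie1 had 90.8 ± 7.86 CPM at P7 and 101 ± 58.1 CPM in adult libraries (log2 fold change of -0.15; edgeR, adjusted p = 0.73). The remaining tested markers were not called. Their log2 fold changes were 0.47 for Flt1, -0.12 for Eng, -0.13 for Pecam1, -0.34 for Esam and -0.62 for Egfl7. The median of the 9 tested was -0.12. The untested markers Tek, Emcn, Robo4, Cldn5, Erg, Sox17 and Ecscr averaged under 0.4 CPM at both ages, and none of the 16 was at 0 in all libraries. The endothelial marker level, 50.9% of whose variance lay between the ages, left Vwf at 0.53 as a covariate (edgeR, adjusted p = 0.43), and the part of endothelial RNA in the level of Vwf was not tested.

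Levels can be set beside each other between genes only per length, here as TMM-scaled CPM per kb of the longest coding transcript (2710 nt for Gp1ba, 2085 nt for Gp1bb and 2197 nt for Gp5). On this scale Gp9 was the highest, at 3827 ± 352 at P7 and 2083 ± 404 in adult libraries (SD, n = 5 each). Gp5 followed at 1408 ± 207 at P7 and 1237 ± 187 in adults. Vwf, at 387 ± 136 at P7 and 263 ± 48.1 in adults, and Gp1ba, at 290 ± 61.7 at P7 and 266 ± 43.0 in adults, were neighbours whose ranges overlapped at each age. Gp1bb was the lowest, at 17.7 ± 4.81 at P7 and 7.59 ± 2.57 in adults, a level made uncertain by the exons shared with Septin5. In every library Gp9 stood above Gp5, and Gp5 above Vwf and Gp1ba. Gp1bb was below all when divided by its full length. Only 149 of its 2087 exon bases are not shared with other genes on the same strand, so its place in this order is uncertain. Coverage along the transcripts was not corrected for.

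The balance between subunit transcripts was compared by the ratio of their counts within each library, which does not depend on the scaling between libraries. Of the 10 pairs formed by the 5 genes, 2 passed a two-sided exact permutation test over all splits of 5 against 5, with Benjamini-Hochberg adjustment over the 10. The smallest p this test can give is 0.0079. No share was computed for pairs of other genes, and 27.7% of single genes were called in either direction. The count of 2 in 10 is therefore not read as particular to the receptor. Both passing pairs had Gp5 on top, with fewer Gp5 counts per count of Gp9 and of Gp1bb at P7. The pair with Gp1bb carries the uncertainty of that gene, which had few counts and shares most of its exon bases with other genes.

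The Gp5/Gp9 ratio of counts was 1.11, 0.873, 1.10, 0.773 and 0.762 in P7 replicates A, B, C, E and I, against 1.73, 1.76, 1.57, 1.31 and 1.17 in adult replicates A, B, C, G and H. Every P7 library was below every adult library, with P7 A and C close to adult H. The difference of the mean log2 ratio was -0.71, or 0.613-fold (exact permutation p = 0.0079, adjusted 0.0397). After removal of the GC trend the difference of Gp5/Gp9 was -0.73, and the GC content of the transcripts is 59.3% for Gp5 and 58.3% for Gp9.

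The Gp5/Gp1bb ratio was 118, 86.3, 67.9, 80.4 and 80.6 in P7 replicates A, B, C, E and I, against 128, 204, 185, 169 and 208 in adult replicates A, B, C, G and H. Here too no P7 library reached an adult one, although P7 A and adult A were near each other. The mean log2 ratio differed by -1.05, or 0.484-fold (exact permutation p = 0.0079, adjusted 0.0397). Both ratios rest on the smallest p the test allows, and with 1 library fewer the adjusted value was 0.0198 without adult A and 0.0529 to 0.0794 without any other, at differences of -0.79 to -0.64 for Gp5/Gp9 and -1.17 to -0.97 for Gp5/Gp1bb over the 10 omissions.

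The ratios to Gp1ba pointed the same way for Gp1bb and Gp9 but did not pass after adjustment. Gp1bb/Gp1ba was 0.0316, 0.0494, 0.0526, 0.0516 and 0.0520 in P7 replicates A, B, C, E and I, against 0.0320, 0.0162, 0.0174, 0.0229 and 0.0219 in adult replicates A, B, C, G and H. P7 A and adult A, each apart from its own group, had nearly equal values, and the other libraries separated by age. The log2 difference was 1.12 (exact permutation p = 0.016, adjusted 0.0529), and without adult A it was 1.27 and passed (exact permutation, adjusted p = 0.0198). Gp9/Gp1ba had medians of 4.89 at P7 and 2.38 in adults and a log2 difference of 0.78 (exact permutation p = 0.032, adjusted 0.0794). The lowest P7 values, 3.37 in P7 A and 3.23 in P7 C, fell below the 3.90 of adult H.

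The other ratios did not pass in this test. Gp5/Gp1ba was the most even, at 3.57 to 4.26 in P7 libraries and 3.21 to 4.55 in adult libraries, with a log2 difference of 0.07 ± 0.11 (SE, exact permutation p = 0.50). Gp9/Gp1bb differed by -0.34 ± 0.25 on the log2 scale (SE, exact permutation p = 0.24, adjusted 0.34). Without adult A, the log2 difference of Gp9/Gp1bb was -0.51 and passed (exact permutation, adjusted p = 0.0198). For the ligand, the log2 differences were 0.37 for Vwf/Gp1ba, 0.30 for Vwf/Gp5, -0.41 for Vwf/Gp9 and -0.75 for Vwf/Gp1bb, with adjusted exact permutation p-values of 0.33, 0.39, 0.39 and 0.16. These differences moved with single libraries, between 0.24 (without adult B) and 0.52 (without P7 I) for Vwf/Gp1ba and between 0.19 (without P7 E) and 0.46 (without P7 I) for Vwf/Gp5. Vwf/Gp9 lay between -0.58 (without P7 A) and -0.18 (without P7 I), and Vwf/Gp1bb between -0.97 (without P7 A) and -0.56 (without P7 I).

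**Figure D4:**
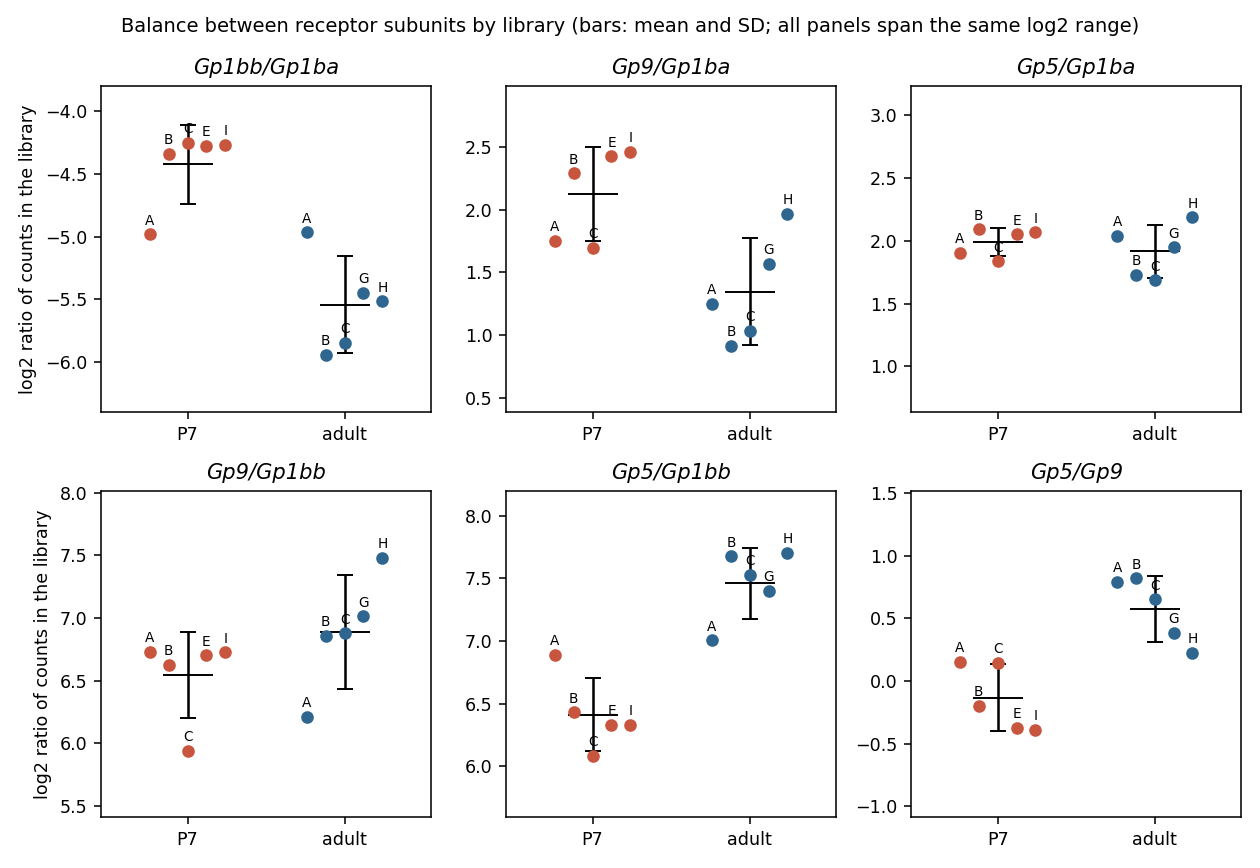
Log2 ratio of counts within each library for the 6 pairs of receptor subunits, with P7 left of adult; letters name replicates, horizontal bars are means and error bars SD (n = 5 each). Gp5/Gp9 and Gp5/Gp1bb do not overlap between the ages, and Gp5/Gp1ba overlaps.

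Within an age the subunits did not all vary together. Over the 10 libraries, after subtraction of the mean of the age group, log2 CPM of Gp5 followed that of Gp1ba at a Pearson's r of 0.78 and that of Gp1bb at 0.69, while Gp9 and Gp1ba had an r of -0.36 and Gp9 and Vwf one of -0.35. These correlations share library, depth and scaling and are descriptions. Among 1932 other genes averaging 20 CPM or more, those most like Gp9 were Rasgrp2, Atp6v0c and Slc25a24 (r of 0.91, 0.90 and 0.89). Their Spearman's rho with Gp9 was 0.66, 0.90 and 0.88. For every member these are the highest of 1932 values over 10 libraries, and such values can be large by selection alone. Those most like Gp1ba were Nelfcd, Mapk14 and Mtmr14 (0.95, 0.93 and 0.92), and those most like Gp5 were Ube2l6, Camk1 and Lpcat3 (0.96, 0.95 and 0.92). Ppm1b and Serpine2 were among those most like Gp1bb (0.90 for both). Abca7, Arhgap23 and Tln1 were most like Vwf (r of 0.97, 0.97 and 0.96), with transcripts of 6696, 5816 and 8393 nt. Transcripts of the genes named for the other members have 1183 nt (Atp6v0c) to 3592 nt (Mapk14). The part of transcript length in these correlations was not tested.

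Around the receptor, 88 genes of 9 groups were examined, of which 76 could be tested. Of these 9 were higher and 14 lower at P7, 30.3% in all against the 27.7% of all genes tested, and their median log2 fold change was -0.03. The share is close to the background, so the values that follow describe single genes. Of 29 named genes outside the receptor and its ligand that were called, markers included, 18 lost the call with the erythroid covariate, 20 with the endothelial covariate and 6 after removal of the GC trend.

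Among 9 tested partners of the GPIb tail and its cytoskeletal links, 1 was higher and 4 lower at P7. Calm2 and Calm3 encode calmodulin, which binds the tails of GPIb-beta and GPV, and both were lower. Calm2 had 339 ± 80.1 CPM at P7 and 1303 ± 302 CPM in adult libraries (SD, n = 5 each). The log2 fold change was -1.94 ± 0.21 for Calm2 (SE) and -0.39 for Calm3. Ywhaz, the 14-3-3 zeta protein that docks on GPIb-alpha, fell by 0.44 and lost its call with the erythroid and with the endothelial covariate. Vcl, which encodes vinculin, rose by 0.97, a call that was lost without any 1 of 8 libraries (P7 A, B, C and E and adult A, B, G and H, at 0.79 to 1.18 over all omissions). It was also lost in limma-voom (0.87), with no filter on low counts (0.95) and with the erythroid (0.28) and endothelial (1.12) covariates. Flna, the filamin that ties GPIb-alpha to actin, had 2392 ± 1124 CPM at P7 and 1329 ± 554 CPM in adult libraries and missed the threshold (log2 fold change of 0.85; edgeR, adjusted p = 0.0988).

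Of 5 genes of receptor shedding 0 were higher and 1 lower. Adam17, the protease that sheds GPIb-alpha, had 9.67 ± 1.90 CPM at P7 and 15.1 ± 2.33 CPM in adult libraries, a log2 fold change of -0.64 (edgeR, adjusted p = 0.0252) that did not pass without P7 A or adult A or B (-0.74 to -0.55 over all omissions). The call of Adam17 was also lost with library size only, with no filter on low counts, after removal of the GC trend, with the replicate block and with both covariates (edgeR, adjusted p of 0.0515 to 0.23 in these fits). Of 20 signalling genes 2 were higher and 4 lower. Lat, an adaptor, rose by 1.32, and the GTPase gene Rap1b, the kinase gene Fyn and the PI3-kinase gene Pik3ca had log2 fold changes of -0.85, -0.64 and -0.86. After removal of the GC trend Rap1b was at -0.49 and kept its call, and Pik3ca was at -0.56 and lost it (edgeR, adjusted p = 0.0104 and 0.0989). With the endothelial covariate Pik3ca was at -0.38. Lat and Pik3ca lost the call with the erythroid and with the endothelial covariate, and Fyn with the erythroid covariate and the replicate block. Lyn, a Src family kinase of GPIb signalling, had 1290 ± 70.1 CPM at P7 and 1311 ± 205 CPM in adult libraries (SD, n = 5 each; log2 fold change of -0.02).

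All 3 tested genes of the other receptors of von Willebrand factor passed. Itga2b and Itgb3, which form the platelet fibrinogen receptor, rose by 0.55 and 0.90, and Itgav, with 3.43 CPM in P7 libraries and 8.91 CPM in adult libraries, had a log2 fold change of -1.37. After removal of the GC trend Itga2b was at 0.18 (edgeR, adjusted p = 0.36). All 3 genes lost the call with the erythroid and with the endothelial covariate. There Itgb3 was at 0.43 and 0.99 (edgeR, adjusted p = 0.57 and 0.14). Of 3 tested partners of GPIb-alpha other than von Willebrand factor, 1 was higher and 1 lower. Thbs1, which encodes thrombospondin-1, had 5219 ± 1574 CPM at P7 and 2172 ± 688 CPM in adult libraries (SD, n = 5 each) and rose by 1.26, and Selp, which encodes P-selectin, had a log2 fold change of -1.55. The call of Thbs1 was lost with the erythroid (0.65) and endothelial (1.11) covariates (edgeR, adjusted p = 0.33 and 0.12). Selp lost its call with the endothelial covariate, at -1.23 (edgeR, adjusted p = 0.0777).

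Of 14 tested genes that process, store or carry von Willebrand factor, 1 was higher and 0 lower at P7. The higher one was P4hb, which encodes protein disulfide isomerase, at 46.1 ± 11.5 CPM at P7 and 25.6 ± 7.07 CPM in adult libraries (log2 fold change of 0.85). Its call was lost after removal of the GC trend (0.63) and with the erythroid (0.30) and endothelial (0.80) covariates (edgeR, adjusted p = 0.0502, 0.68 and 0.24). Adamts13, the protease that trims von Willebrand factor, had 0 counts in all 10 libraries, which allows a level of up to 0.154 CPM (3 counts) in the shallowest library. None of 5 genes of folding in the endoplasmic reticulum was called, among them Calr, with 48.2 CPM in P7 libraries and 50.1 CPM in adult libraries, and Hspa5, with 35.9 CPM in P7 libraries and 41.8 CPM in adult libraries. Hsp90b1, the chaperone on which folding of GPIX depends, had a log2 fold change of -0.15 ± 0.27 (SE).

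Of 11 transcription factors, 2 were higher and 2 lower at P7. Runx1 and Fli1, both regulators of megakaryocyte genes, had log2 fold changes of -1.53 and -0.88, with Fli1 at 109 ± 29.6 CPM at P7 and 201 ± 34.6 CPM in adult libraries (SD, n = 5 each). Fli1 lost its call with the erythroid and with the endothelial covariate. Gata1 had 277 ± 44.2 CPM at P7 and 163 ± 71.3 CPM in adult libraries and rose by 0.76 (edgeR, adjusted p = 0.0399), a call lost without any P7 library or adult A, B or C (0.58 to 0.97 over all omissions). The call of Gata1 was also lost with no filter on low counts (0.75), after removal of the GC trend (0.50) or of the length trend (0.67), and with the erythroid (0.75) and endothelial (0.35) covariates. Ets1 rose by 1.10, from low levels, and lost its call without P7 A or E or adult A or B (0.87 to 1.26). The call of Ets1 was also lost with the erythroid and with the endothelial covariate. Of 6 tested genes of glycosylation and clearance, 0 were higher and 1 lower, namely C1galt1, an enzyme of O-glycan synthesis, with a log2 fold change of -0.79. C1galt1 was at -0.42 after removal of the GC trend (edgeR, adjusted p = 0.0855) and also lost its call with the erythroid and with the endothelial covariate.

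**Figure D5:**
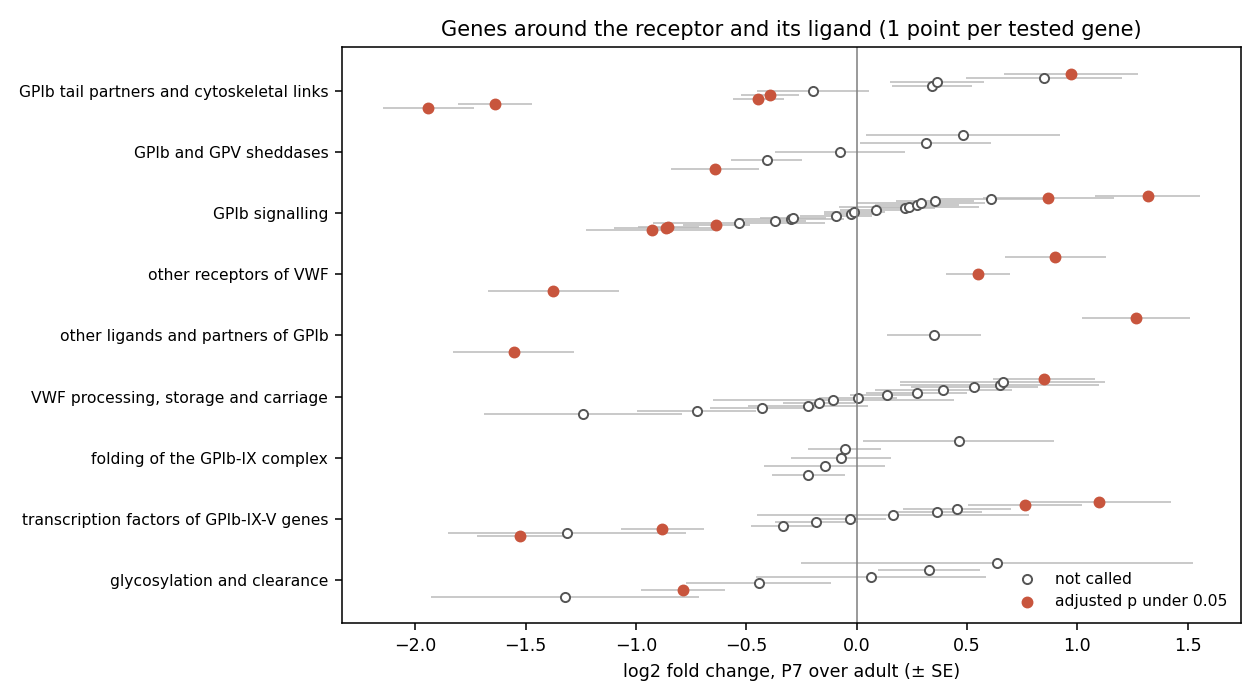
Log2 fold change, P7 over adult, with 1 SE for each tested gene of 9 groups around the receptor and its ligand; filled points passed edgeR's quasi-likelihood test at an adjusted p under 0.05. Calm2 lies farthest to the left, at -1.94, and Lat and Thbs1 farthest to the right, at 1.32 and 1.26.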

How the data were processed

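Platelet RNA of P7 and adult mice was sequenced as single-end reads after amplification of cDNA from a low input, per the labels' protocols. The authors deposited raw counts per gene symbol, with no normalization seen in the values. The tools, per the submitters' processing notes, were Salmon 1.5.2, STAR 2.7.9a, fastp 0.23.1, featureCounts and Subread 2.0.1; their roles are not stated. Genome build, annotation and strand setting were not given in the sources used here.

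Genes were kept with filterByExpr (at least 10 counts, at least 15 in total), and 8198 remained. TMM scaling was applied, and counts were tested with edgeR's quasi-likelihood test (edgeR 4.0.16, limma 3.58.1, R 4.3.3) over all 10 libraries with age as the only term. P-values were adjusted by Benjamini-Hochberg over all tested genes, and calls were made at 0.05. Ratios used counts plus 0.5 and a two-sided exact permutation test. The tests were checked on simulated data. Without molecular identifiers, limits based on counts describe counting error alone. Transcript lengths, GC contents and exon overlaps came from GENCODE M21 (GRCm38), in which 93.8% of the symbols were found. For the GC and length alternatives a loess trend (span 0.5) was taken out per library.

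The genes and groups were chosen with earlier results of these data known. Beside the 5 genes, the text names in each group up to 4 called genes with the smallest p (up to 2 among markers), or the 2 most abundant if none was. Calm3, Flna, Lyn, Hsp90b1, Adamts13, Septin5, Pecam1, Esam, Kdr, Tie1, Flt1, Eng, Egfl7 and the untested endothelial markers were named after their values were seen. For likeness, up to 3 genes per member were named by Pearson's r. Some items that these rules select are not reported here. RefSeq promoter entries were found for 4 of the 5 genes. Alternatives were other scalings, DESeq2 1.42.0, limma-voom, other filters, omission of each library, a replicate block, trends and marker covariates.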

Additional observations from a re-analysis of the deposited data

Results flagged for a closer look

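Among 30 sets of 5 values (each gene and each ratio at each age), 3 held a library whose gap to the nearest other was above 0.71 of the whole range. For a single set of normal values chance alone gives about 1 in 20. The ratios share genes, so the sets are not independent and the count of 3 is not read against that rate. Adult A had 25.3 CPM of Gp1bb, where the other adult libraries had 12.1 to 14.3 CPM. The log2 ratio Gp1bb/Gp1ba of P7 A was -4.98, apart from the other P7 libraries. The log2 ratio Gp9/Gp1bb of P7 C was 5.94, below the other P7 libraries. Each of the 3 involves Gp1bb, the gene with the fewest counts and with exons shared with Septin5, and the part of either in these values was not tested.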

How the results depend on the processing

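Gp1bb and Gp9 kept their direction in all 24 alternatives. Gp9 lost its call in 1 of them, the erythroid covariate (0.79), and Gp1bb in 3, the erythroid (0.62) and endothelial (1.08) covariates and the replicate block. Signs turned for Gp1ba with the GC trend removed (-0.0103) and with the erythroid covariate (-0.36), for Gp5 in the same fits (-0.21 and -0.23), for the log2 ratio Gp5/Gp1ba with the GC trend removed (-0.19), and for Calr with library size only (0.0067), upper quartile scaling (0.0071) and without P7 I (0.0067). The count of called genes was 2272, and 1215 with a mean of at least 10 CPM (2803 genes tested), 1416 with the block, 420 with the erythroid and 705 with the endothelial covariate. By the difference of medians, Gp5/Gp1bb (-1.20) and Gp5/Gp9 (-0.85) did not pass (exact permutation, adjusted p = 0.12 for both). Many splits of 5 against 5 share the same medians, so the smallest p of this form is larger than that for means. After adjustment over the 10 pairs it could hardly pass, and the loss says little about either ratio. Except where a construction with fewer genes or libraries is named, the cause was not tested.

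Without 1 library each, log2 fold changes were 1.05 to 1.44 for Gp1bb, 0.79 to 0.98 for Gp9, 0.01 to 0.20 for Gp1ba, 0.11 to 0.25 for Gp5, 0.42 to 0.72 for Vwf and -0.17 to 0.0067 for Calr. Log2 ratio differences were 1.02 to 1.27 for Gp1bb/Gp1ba, -0.51 to -0.19 for Gp9/Gp1bb, -1.17 to -0.97 for Gp5/Gp1bb, -0.79 to -0.64 for Gp5/Gp9, 0.67 to 0.93 for Gp9/Gp1ba and 0.01 to 0.14 for Gp5/Gp1ba. For Vwf they were 0.24 to 0.52 over Gp1ba, 0.19 to 0.46 over Gp5, -0.58 to -0.18 over Gp9 and -0.97 to -0.56 over Gp1bb.

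P7 and adult libraries share the letters A, B and C, but same-letter libraries did not deviate together (r of -0.18, 0.10 and -0.07). The labels do not say that the letters pair libraries, and so few correlations cannot exclude a pairing. With the replicate block on these 6 libraries the log2 fold change was 1.20 for Gp1bb (edgeR, adjusted p = 0.0636) and 0.60 for Vwf (adjusted p = 0.0412). The same libraries without the block gave 1.17 and 0.62 (edgeR, adjusted p = 0.0266 and 0.0666).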
